A study of Mus musculus with 4 samples.

Results

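The 59 genes described here drive, time or brake the mammalian cell cycle, and they were listed by name for their known roles; the rule sets no limit on a measured value, though earlier results of these data were known when the list was made. They comprise 13 genes of the G1 phase, 18 DNA replication genes, 24 mitosis genes and 4 inhibitors of cyclin-dependent kinases (CDKs), out of 22903 genes that could be named and measured on the array. RNA came from mouse bone marrow cultures of 4 kinds, with 1 array for each: macrophages and osteoclasts, the bone-resorbing multinucleated cells of the same lineage, each from wild-type and from LysM-St18flox mice. The macrophages had grown from bone marrow cells in 25 ng/ml of M-CSF, the growth and survival factor of this lineage, for 4 days. The osteoclasts came from such macrophages after a further 3 days in the same dose of M-CSF plus RANKL, the cytokine that drives osteoclast formation, at 50 ng/ml, so RANKL and the length of culture changed together. All cells grew in RPMI1640 with 10% serum. By the usual convention the name LysM-St18flox stands for mice whose St18 gene, encoding a zinc finger transcription factor, carries loxP sites and whose Cre recombinase is made from the lysozyme M locus, which is active in macrophages, their precursors and neutrophils. How many mice gave each culture, their age and sex, and whether macrophages and osteoclasts of a genotype came from the same marrow are not stated in the labels.

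A cell that is to divide passes from G1 into DNA synthesis when D-type cyclins with CDK4 or CDK6, and then E-type cyclins with CDK2, inactivate the retinoblastoma protein and free E2F transcription factors. E2F factors switch on genes for the replication machinery and for nucleotide supply, while many genes of mitosis are switched on later through a complex that binds the cell cycle homology region of their promoters. CDK inhibitors hold these kinases back. M-CSF makes macrophage precursors divide, and osteoclasts form by fusion of precursors that leave the cell cycle.

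All 59 genes were well above background on all 4 arrays. Each level given below is a log2 signal relative to the 75th percentile of its array, so a level of 0 lies at that percentile and a difference of 1 is 2-fold. Where 4 levels stand in a row they are in the order wild-type macrophages, wild-type osteoclasts, LysM-St18flox macrophages, LysM-St18flox osteoclasts. Levels of different genes come from different probes and are not compared. With 1 array a group no difference has a replicate check and no test was made: a gene was called higher or lower when it differed by at least 2-fold, and counts are set beside the share of all genes that passed the same rule. The only spread that could be measured, between repeated spots of a probe on 1 array, gave a difference of 2 arrays an SD of 0.045 to 0.056 (log2), and it holds no biological variation. The arrays had no saturated spot and at most 63.2% of spots well above background. Before scaling, both LysM-St18flox arrays were brighter than both wild-type arrays. The raw intensity by which an array was scaled came to 636 for wild-type macrophages and 770 for wild-type osteoclasts. For LysM-St18flox macrophages it was 1159, and for LysM-St18flox osteoclasts 1062. Brightness and genotype thus differed together, and the part of brightness in the genotype differences was not tested. All 10 osteoclast markers, among them Ctsk and Acp5, were more than 2-fold higher in osteoclasts than in macrophages of both genotypes, and all 8 macrophage markers were well above background on all 4 arrays. St18 itself was at 0.29, 1.55, -1.52 and 1.12, which is 3.51-fold lower in LysM-St18flox macrophages and 1.35-fold lower in LysM-St18flox osteoclasts. Of its 2 probes only the brighter is given. Whether that probe lies in the floxed part is not known here, so St18 does not check the deletion.

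The cell cycle genes were lower in LysM-St18flox cells than in wild-type cells of both types. The level was lower in LysM-St18flox macrophages for 56 of the 59 genes, with a median difference of -0.61 (log2), whereas 51.8% of all genes were below 0 and their median was -0.02. In osteoclasts 55 of 59 were lower, with a median difference of -0.44, against 50.5% of all genes and a median of 0.00. The comparisons of genotypes in macrophages and in osteoclasts use different arrays, and 54 of 59 genes (91.5%) were lower in both, against 35.2% of all genes. For 42 of 59 genes both LysM-St18flox arrays lay below both wild-type arrays, a pattern that 17.7% of all genes had. The differences were mostly small. In macrophages 5 of the 59 genes were lower by 2-fold or more in LysM-St18flox cells (2.98% of all genes were) and 1 was higher (3.3% of all genes); none passed 2-fold in osteoclasts, where 3.94% of all genes were lower and 3.8% higher. At the looser limit of 1.5-fold, 35 were lower and 1 was higher in macrophages (11.2% and 10.1% of all genes), and 13 were lower and 1 was higher in osteoclasts (12.1% and 10.4% of all genes). In these cultures of many cells, fewer dividing cells and less of these RNAs in each cell cannot be told apart. Markers of the cultured cell types differed by genotype as well. In osteoclasts 8 of the 10 osteoclast markers were more than 2-fold higher in LysM-St18flox cells and 9 of 10 lay above 0, with a median difference of 1.20 (Oscar 2.30, Calcr 2.10 and Mmp9 2.08, but Ctsk 0.29 and Acp5 -0.29). In macrophages 3 of the 8 macrophage markers were more than 2-fold higher in LysM-St18flox cells (Mertk 1.66, Mrc1 1.41 and Siglec1 1.09), with a median of 0.19 over the list, and Dcstamp and Ocstamp of the 9 measured osteoclast markers were lower by that rule. The part of these differences in those of the cell cycle genes was not tested.

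**Figure D1:**
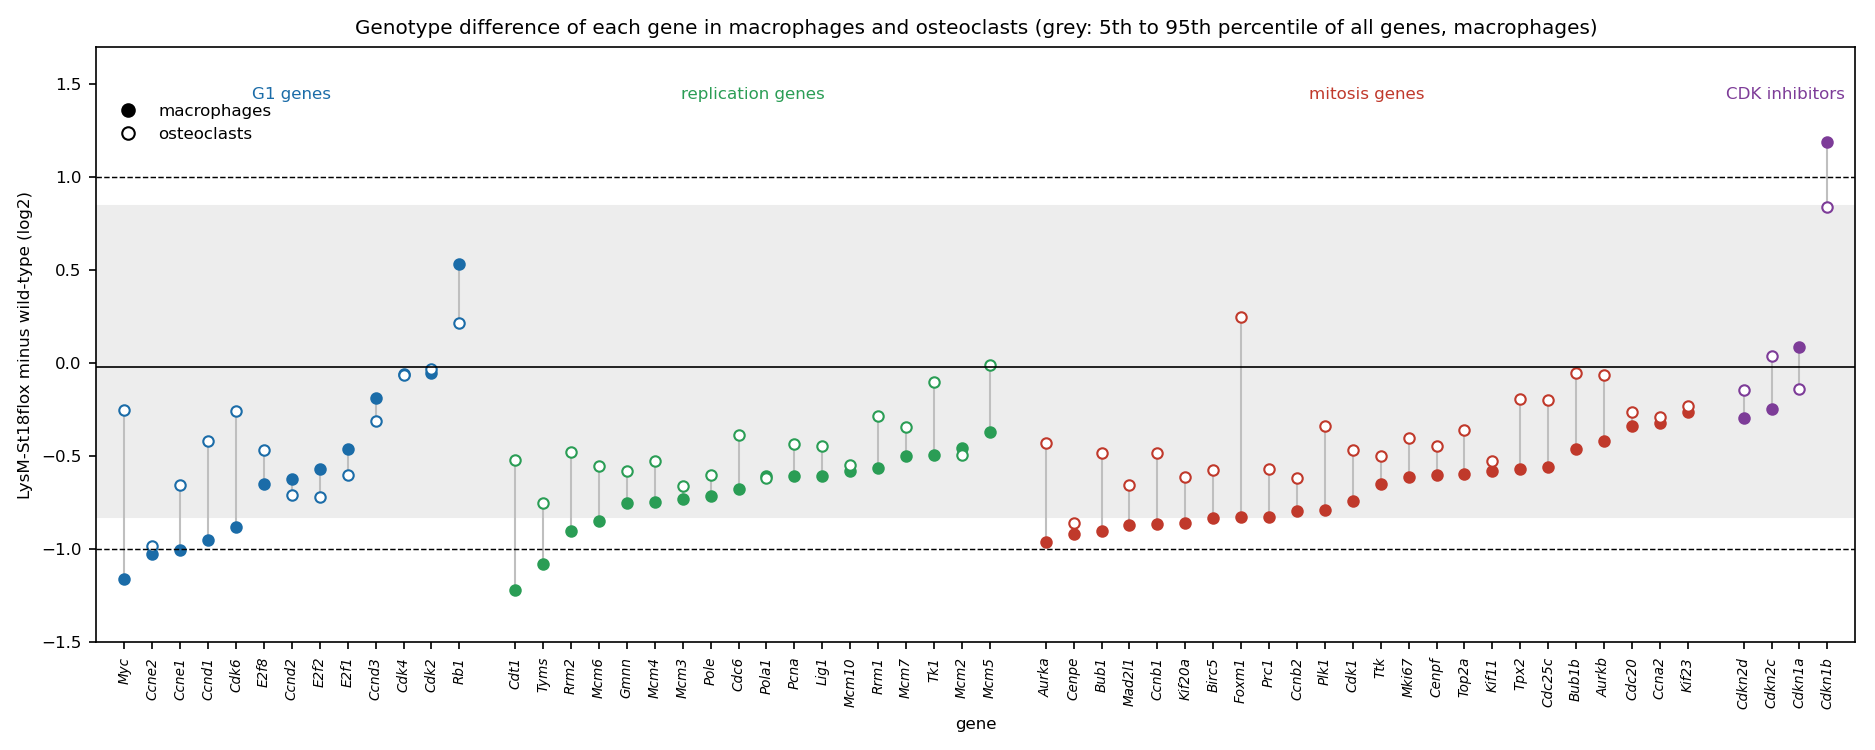
Difference between LysM-St18flox and wild-type (log2) for each of the 59 genes, in macrophages (filled) and osteoclasts (open), 1 array per group; dashed lines mark 2-fold, the solid line the median of all genes and the grey band the 5th to 95th percentile of all genes in macrophages (-0.83 to 0.84). In macrophages 56 of 59 genes lie below 0, and Cdkn1b is the gene above the upper dashed line.

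Between cell types the replication and mitosis genes differed little, and a few G1 genes and CDK inhibitors differed more. In wild-type cells 38 of the 59 genes were lower in osteoclasts than in macrophages, with a median difference of -0.09, and 49.8% of all genes were below 0. In LysM-St18flox cells 38 of 59 were higher in osteoclasts, with a median difference of 0.10, against 48.8% of all genes, and this count fell to 30 under quantile normalization. Genes past 2-fold were few. In wild-type cells Myc was higher in osteoclasts and Ccnd1, Ccnd2, E2f2 and Cdkn1a were lower (1 and 4 of 59, against 5.7% and 7.32% of all genes). In LysM-St18flox cells Myc was higher and Ccnd2, Ccnd3, E2f2, Rb1 and Cdkn1a were lower (1 and 5 of 59, against 10.9% and 12.2% of all genes). At 1.5-fold the counts were 1 higher and 9 lower in wild-type cells (12.9% and 14.4% of all genes) and 6 higher and 8 lower in LysM-St18flox cells (20.3% and 22.1% of all genes). No replication or mitosis gene passed 2-fold between the cell types of either genotype. Both osteoclast arrays lay below both macrophage arrays for 10 of the 59 genes (29.1% of all genes) and above them for 5 (29.7% of all genes), and the 4 levels of a gene spanned less than 2-fold for 42 of 59 (68.1% of all genes).

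**Figure D2:**
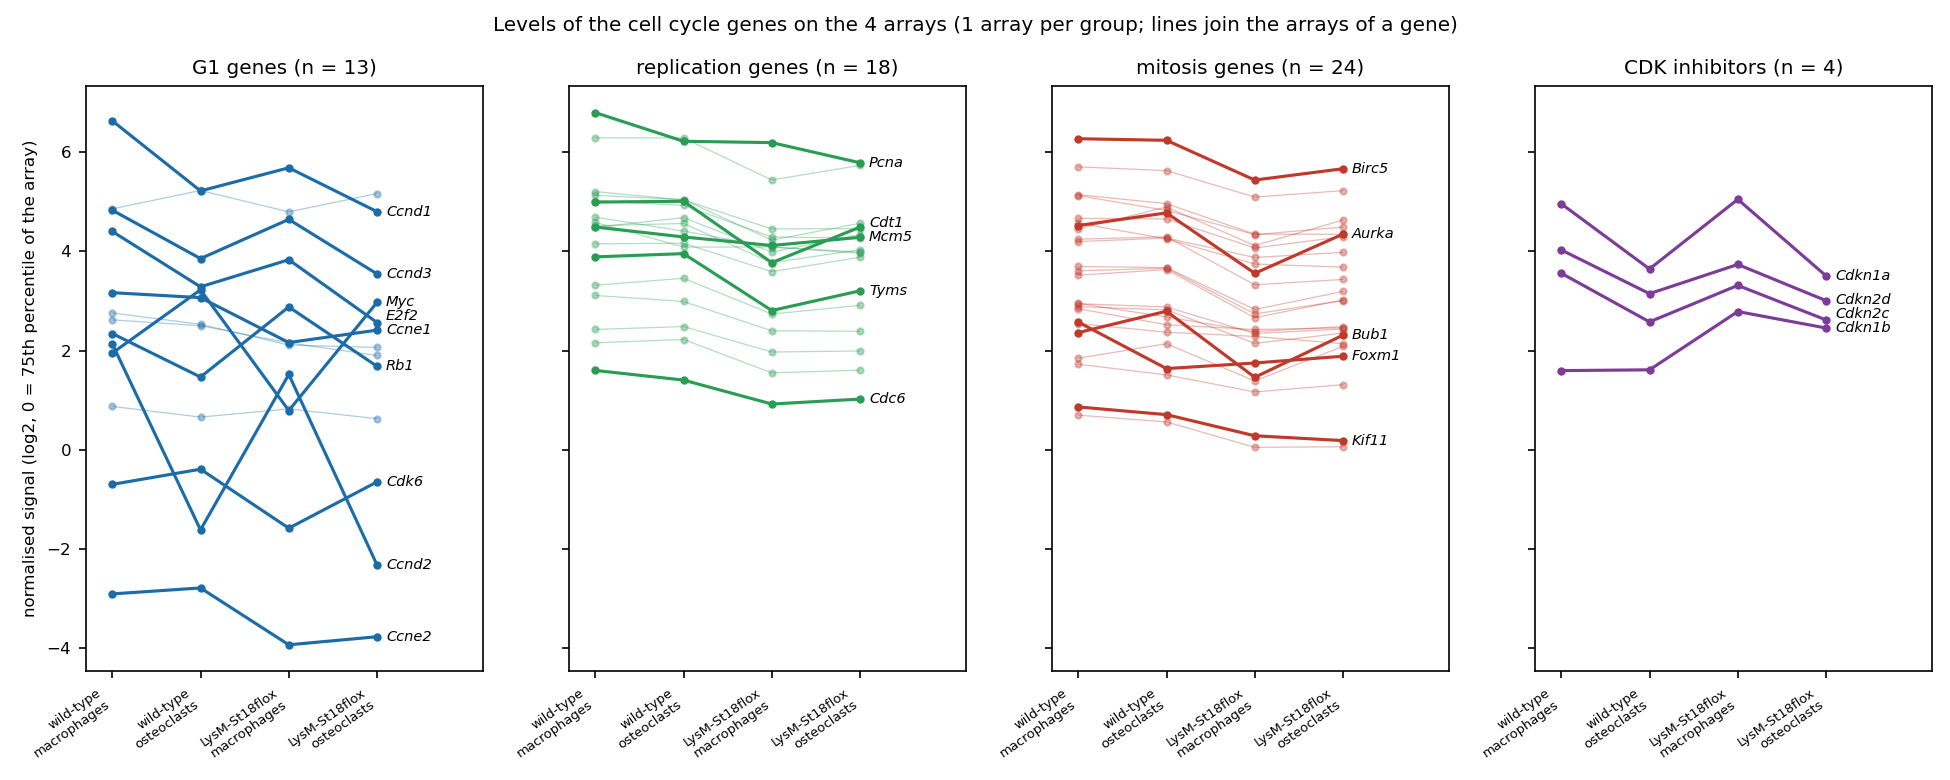
Level (log2, 0 is the 75th percentile of the array) of each gene on the 4 arrays, in 4 panels by role, 1 line per gene and 1 array per group. Most replication and mitosis lines run level between macrophages and osteoclasts of a genotype and step down from wild-type to LysM-St18flox, while Ccnd2 falls steeply in osteoclasts of both genotypes.

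Among the G1 genes the 3 D-type cyclins, the partners of CDK4 and CDK6 that relay growth factor signals, were lower in both osteoclast cultures than in both macrophage cultures. Ccnd2 was at 2.14 and -1.61 in wild-type macrophages and osteoclasts, and at 1.52 and -2.32 in those of LysM-St18flox mice. It was thus 13.5-fold lower in wild-type osteoclasts and 14.3-fold lower in LysM-St18flox osteoclasts than in the macrophages of the same genotype, the widest range of any of the 59 genes. Ccnd1 was at 6.63, 5.22, 5.69 and 4.80 on the same 4 arrays. Its osteoclast level was 2.66-fold lower than in macrophages in wild-type cells and 1.85-fold lower in LysM-St18flox cells, and the second difference passed 2-fold under quantile normalization (-1.08, log2). For Ccnd3 the levels were 4.83, 3.86, 4.65 and 3.55, which is 0.98 lower in wild-type osteoclasts and 2.14-fold lower in LysM-St18flox osteoclasts. Their kinases did not follow: Cdk4 was 0.37 higher in osteoclasts of both genotypes, and Cdk6 was 0.31 higher in wild-type and 0.93 higher in LysM-St18flox osteoclasts.

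The E-type cyclins, which start DNA synthesis with CDK2, differed by genotype and hardly by cell type. Ccne1 was at 3.17 and 3.07 in wild-type macrophages and osteoclasts, and at 2.16 and 2.41 in those of LysM-St18flox mice. Ccne2 was at -2.90, -2.78, -3.93 and -3.77. Both LysM-St18flox arrays lay below both wild-type arrays for each of these cyclins. In macrophages Ccne1 was 2.01-fold and Ccne2 2.04-fold lower in LysM-St18flox cells, and in osteoclasts 1.57-fold and 1.98-fold lower. These values lie at the edge of the 2-fold rule, and with a normexp background correction the macrophage differences were -0.78 for Ccne1 and -0.77 for Ccne2 (log2). Cdk2, the kinase they bind, differed by at most 0.05 between genotypes.

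Myc, a transcription factor that promotes growth and entry into the cycle, was the only G1 gene higher than 2-fold in osteoclasts. Its levels were 1.95 and 3.23 in wild-type macrophages and osteoclasts, and 0.79 and 2.97 in those of LysM-St18flox mice. Relative to macrophages it was 2.42-fold higher in wild-type osteoclasts and 4.54-fold higher in LysM-St18flox ones. Between genotypes it was 2.23-fold lower in LysM-St18flox macrophages and 1.19-fold lower in LysM-St18flox osteoclasts, and the macrophage difference was -0.96 (log2) when both of its probes were averaged by their median.

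The retinoblastoma and E2F arm split. Rb1, the brake on E2F, was at 2.35, 1.47, 2.88 and 1.68. Read at each gene's brightest probe, Rb1 was the G1 gene that went against the others. Its LysM-St18flox levels lay above wild-type ones by 0.54 in macrophages and 0.22 in osteoclasts. Both dimmer Cdk4 probes were higher in LysM-St18flox cells too, by 0.28 and 0.15 in macrophages and by 0.38 and 0.23 in osteoclasts. LysM-St18flox osteoclasts had 2.29-fold less Rb1 than LysM-St18flox macrophages. E2f2, an activating E2F, was at 4.40, 3.29, 3.83 and 2.57. It was 2.17-fold lower in wild-type osteoclasts and 2.41-fold lower in LysM-St18flox osteoclasts than in macrophages, and 0.57 and 0.72 lower in LysM-St18flox macrophages and osteoclasts than in wild-type ones. E2f1, another activator, and E2f8, a repressor of E2F targets, differed between cell types by 0.05 to 0.26 only, and both were lower in LysM-St18flox cells, by 0.46 and 0.65 in macrophages and by 0.60 and 0.47 in osteoclasts.

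Read at each gene's brightest probe, the 4 CDK inhibitors separated into Cdkn1b, which differed by genotype, and Cdkn1a, Cdkn2c and Cdkn2d, which differed by cell type. Cdkn1b, encoding p27, the inhibitor of CDK2 complexes in resting cells, was at 1.60 and 1.61 in wild-type macrophages and osteoclasts, and at 2.79 and 2.46 in those of LysM-St18flox mice. Both LysM-St18flox levels lay above both wild-type ones. It was 2.28-fold higher in LysM-St18flox macrophages, the only one of the 59 genes past 2-fold in that direction, and 1.79-fold higher in LysM-St18flox osteoclasts. Cdkn1a, encoding p21, a p53 target, was at 4.96, 3.65, 5.05 and 3.51 on the 4 arrays. Its level was 2.49-fold lower in wild-type osteoclasts and 2.91-fold lower in LysM-St18flox osteoclasts than in macrophages, with genotype differences of 0.09 and -0.14. A dimmer Cdkn1a probe gave genotype differences of -0.08 in macrophages and -0.85 in osteoclasts. Cdkn2c, encoding p18, and Cdkn2d, encoding p19, inhibit CDK4 and CDK6. Cdkn2c was at 3.56, 2.58, 3.32 and 2.62, and Cdkn2d at 4.03, 3.15, 3.74 and 3.01. They were 0.70 to 0.98 lower in osteoclasts, under the 2-fold limit, and differed between genotypes by at most 0.29. With normexp background correction Cdkn2c passed that limit in wild-type cells (-1.13).

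The replication genes were the most uniform by genotype: all 18 were lower in LysM-St18flox cells of both types, with a median difference of -0.64 in macrophages and -0.51 in osteoclasts, and for 17 of them both LysM-St18flox arrays lay below both wild-type ones. The osteoclast count was 17 of 18 under median centring and under normexp background correction. The genes past 2-fold in macrophages were Cdt1, which loads the replicative helicase onto origins, and Tyms, which makes thymidylate for DNA. Cdt1 was at 4.996 and 5.01 in wild-type macrophages and osteoclasts, and at 3.78 and 4.49 in those of LysM-St18flox mice. It was 2.33-fold lower in LysM-St18flox macrophages and 1.43-fold lower in LysM-St18flox osteoclasts. Tyms was at 3.89, 3.96, 2.81 and 3.21, which is 2.12-fold and 1.68-fold lower. A dimmer Tyms probe gave differences of -0.87 and -0.45 (log2), so Tyms passed 2-fold in macrophages by its brighter probe only.

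The helicase and genes that act on its loading or start lay in the same direction. The 6 subunits of the MCM2 to MCM7 helicase were lower in LysM-St18flox macrophages by between 0.37 (Mcm5) and 0.85 (Mcm6) and in LysM-St18flox osteoclasts by between 0.01 (Mcm5) and 0.66 (Mcm3). Mcm3 was at 5.02, 4.93, 4.29 and 4.27. Mcm2 was at 2.43, 2.49, 1.97 and 1.99. Each shows the same shape, level across cell types and lower on both LysM-St18flox arrays. Mcm7 had a second, dimmer probe whose genotype differences were -2.29 in macrophages and -1.98 in osteoclasts, against -0.50 and -0.34 at the brighter probe. A dimmer Mcm6 probe gave -1.48 and -0.94, against -0.85 and -0.55. The sizes for Mcm7 and Mcm6 thus depend on the probe. Mcm10, which acts at origins when the helicase starts, Cdc6, which loads the helicase with Cdt1, and Gmnn, encoding geminin, which inhibits Cdt1, were 0.58, 0.68 and 0.75 lower in LysM-St18flox macrophages and 0.55, 0.38 and 0.58 lower in osteoclasts.

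Nucleotide supply and DNA synthesis gave the same direction. Rrm2, the regulated subunit of ribonucleotide reductase, was at 5.13, 5.05, 4.23 and 4.57 and was 1.87-fold lower in LysM-St18flox macrophages and 1.39-fold lower in LysM-St18flox osteoclasts. Pola1, the catalytic subunit of DNA polymerase alpha, was at 2.16, 2.23, 1.55 and 1.61. Its genotype difference was almost the same in both cell types, -0.61 and -0.62. Pcna, the sliding clamp, was at 6.80, 6.22, 6.19 and 5.79, and Tk1, which salvages thymidine, at 4.59, 4.09, 4.09 and 3.99. These had the replication genes' largest differences between cell types in wild-type cells, 0.58 and 0.50 lower in osteoclasts, and neither passed 2-fold. Lig1, the ligase that joins Okazaki fragments, was at 4.69, 4.41, 4.09 and 3.96, and Rrm1 and Pole were 0.56 and 0.71 lower in LysM-St18flox macrophages and 0.28 and 0.60 lower in osteoclasts.

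The mitosis genes followed the replication genes. All 24 were lower in LysM-St18flox macrophages, with a median difference of -0.69 and a range from -0.26 (Kif23) to -0.96 (Aurka), and 23 were lower in LysM-St18flox osteoclasts, with a median of -0.44. The exception was Foxm1. None reached 2-fold at its brightest probe, and 16 of 24 were past 1.5-fold in macrophages. In macrophages a dimmer Kif23 probe gave -0.75, and dimmer probes of Ccna2 (-1.12), Ccnb1 (-1.04) and Foxm1 (-1.32) were past 2-fold. For 21 of 24 both LysM-St18flox arrays lay below both wild-type ones. At the brightest probes the genotype difference was smaller in osteoclasts than in macrophages for 24 of 24, against 51.4% of all genes. Dimmer probes went the other way for Kif23 (-0.75 in macrophages, -0.99 in osteoclasts) and Cenpf (-0.39 and -0.68). The Foxm1 one gave -1.32 and -1.33. The difference of responses given below was above 0 for 20 of 24 under quantile normalization and in the authors' deposited table. With normexp and with the median over probes it was above 0 for 22 of 24.

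Of the mitotic kinases, Aurka, which acts at the spindle poles, was at 4.52 and 4.78 in wild-type macrophages and osteoclasts, and at 3.56 and 4.35 in those of LysM-St18flox mice. It was 1.95-fold lower in LysM-St18flox macrophages and 1.34-fold lower in LysM-St18flox osteoclasts. Bub1, a kinase of the spindle checkpoint, was at 2.36, 2.80, 1.46 and 2.31, and Bub1b at 1.85, 2.14, 1.39 and 2.09. Both were higher in osteoclasts than in macrophages in each genotype, by 0.29 to 0.85. Cdk1, the kinase that starts mitosis, was 0.74 lower in LysM-St18flox macrophages and 0.47 lower in LysM-St18flox osteoclasts. Plk1, Aurkb and Ttk were 0.79, 0.42 and 0.65 lower in macrophages and 0.33, 0.06 and 0.50 lower in osteoclasts. A dimmer Aurkb probe gave -0.83 in macrophages and -0.58 in osteoclasts.

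The B-type cyclins activate CDK1, and Ccnb2 was at 5.14, 4.96, 4.35 and 4.35 on the 4 arrays. Ccnb1 was 0.87 lower in LysM-St18flox macrophages and 0.48 lower in osteoclasts. Ccna2 differed by -0.32 and -0.29 at its brighter probe and by -1.12 and -0.85 at a second probe that was almost as bright in wild-type cells. Cdc25c, the phosphatase that switches CDK1 on, was 0.56 and 0.20 lower. Cdc20, which starts chromosome separation, was at 4.45, 4.90, 4.12 and 4.63. It had the largest osteoclast excess of the mitosis genes in wild-type cells, 0.44 (0.32 at a dimmer probe).

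Read at each gene's brightest probe, Cenpe and Mad2l1, a pair of kinetochore genes, had the largest genotype differences of the mitosis genes in osteoclasts. Dimmer probes of Foxm1 (-1.33) and Kif23 (-0.99) went beyond both. Those of Ccna2 (-0.85), Ccnb1 (-0.71 and -0.66), Cenpf (-0.68) and Birc5 (-0.68) went beyond Mad2l1, so this ranking depends on the probe. Cenpe, a kinetochore motor, was at 4.25, 4.30, 3.33 and 3.44, which is 1.89-fold lower in LysM-St18flox macrophages and 1.81-fold lower in LysM-St18flox osteoclasts. Mad2l1, a spindle checkpoint protein, was at 3.61, 3.66, 2.74 and 3.01, with genotype differences of -0.87 and -0.65 (-0.64 and -0.36 at a dimmer probe). For both, at the brightest probe, the LysM-St18flox arrays lay below the wild-type arrays by more than the cell types differed. The kinesins Kif11, Kif20a and Kif23 were 0.58, 0.86 and 0.26 lower in LysM-St18flox macrophages (-0.75 at the dimmer Kif23 probe). There the spindle genes Tpx2, Prc1 and Cenpf were 0.57, 0.82 and 0.60 lower. The proliferation markers Mki67, Top2a and Birc5 were 0.61, 0.60 and 0.83 lower in LysM-St18flox macrophages and 0.40, 0.36 and 0.57 lower in LysM-St18flox osteoclasts.

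Foxm1, a transcription factor of mitosis genes, differed from the other 23, and its probes did not read alike. At the brighter probe it was at 2.58 and 1.64 in wild-type macrophages and osteoclasts, and at 1.75 and 1.89 in those of LysM-St18flox mice. The wild-type macrophages were high and the other 3 arrays lay within 0.25 of each other. At the dimmer probe it was at -1.64, -1.56, -2.96 and -2.88, with genotype differences of -1.32 and -1.33 and hardly any difference between cell types. Only the brighter probe gave a difference of responses past 2-fold.

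The genes that differed together by genotype were compared in the letters of their promoters. Of the 59 genes 45 had a promoter in the RefSeq table (assembly GRCm38.p6), with 53 windows in all. The 250 bases before the start site were searched on both strands for an E2F site (TTTCCCGC, TTTCGCGC, TTTGCCGC or TTTGGCGC), for the cell cycle homology region (TTTGAA) and for the CCAAT box, and no motif contains another, though E2F matches on opposite strands can overlap, as a pair in Mcm6 does. An E2F site was found in 27.8% of the 18 replication gene windows, 5.26% of the 19 mitosis gene windows and none of the 6 CDK inhibitor windows, against 1.86% of all 32851 windows. The cell cycle homology region was found in 36.8% of mitosis gene windows and 5.56% of replication gene windows, against 16% of all windows. The CCAAT box was found in 89.5% of mitosis gene windows and 61.1% of replication gene windows, against 33.8% of all. With the 50 bases after the start included, the homology region was in 73.7% of mitosis gene windows and 17.9% of all windows. Printed here are the last 200 bases before the start site, 5′ to 3′ on the gene's strand, with matches to any of the motifs, on either strand, in capitals, for a pair of replication genes, 3 mitosis genes and Cdkn1b, the gene that went the other way. The positions in GRCm38.p6 are chr1:128359706-128359905 on the minus strand for Mcm6, chr11:98907951-98908150 on the plus strand for Cdc6, chr10:69352913-69353112 on the minus strand for Cdk1, chr11:99024190-99024389 on the minus strand for Top2a, chr19:37376182-37376381 on the plus strand for Kif11 and chr6:134920201-134920400 on the plus strand for Cdkn1b.
Mcm6: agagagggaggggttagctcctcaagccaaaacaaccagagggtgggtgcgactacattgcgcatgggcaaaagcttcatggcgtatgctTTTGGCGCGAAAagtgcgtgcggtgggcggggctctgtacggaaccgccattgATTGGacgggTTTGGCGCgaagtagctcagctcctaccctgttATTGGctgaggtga
Cdc6: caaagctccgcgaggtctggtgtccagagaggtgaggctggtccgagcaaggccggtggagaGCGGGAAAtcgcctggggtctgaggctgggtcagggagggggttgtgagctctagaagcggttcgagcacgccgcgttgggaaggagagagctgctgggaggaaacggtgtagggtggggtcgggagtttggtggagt
Cdk1: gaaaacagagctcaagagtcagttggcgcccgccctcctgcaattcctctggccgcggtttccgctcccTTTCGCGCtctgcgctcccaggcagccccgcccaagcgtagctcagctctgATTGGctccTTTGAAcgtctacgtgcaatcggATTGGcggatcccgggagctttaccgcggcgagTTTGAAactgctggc
Top2a: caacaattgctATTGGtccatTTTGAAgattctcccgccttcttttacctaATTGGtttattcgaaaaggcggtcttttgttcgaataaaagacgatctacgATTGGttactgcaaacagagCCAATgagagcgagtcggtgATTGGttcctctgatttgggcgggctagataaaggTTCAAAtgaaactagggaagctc
Kif11: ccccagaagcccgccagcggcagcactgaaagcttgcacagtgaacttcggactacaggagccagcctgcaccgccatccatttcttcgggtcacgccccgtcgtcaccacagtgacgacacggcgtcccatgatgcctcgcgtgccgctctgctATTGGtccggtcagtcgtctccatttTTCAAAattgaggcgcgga
Cdkn1b: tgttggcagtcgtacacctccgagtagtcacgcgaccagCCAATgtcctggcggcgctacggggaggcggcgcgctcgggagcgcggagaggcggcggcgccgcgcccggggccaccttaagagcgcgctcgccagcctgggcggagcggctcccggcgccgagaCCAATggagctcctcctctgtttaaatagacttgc
The Mcm6 stretch held 3 E2F matches and 2 CCAAT boxes, and the Cdc6 stretch 1 E2F match. The Cdk1 stretch held 1 E2F match, 2 homology regions and 2 CCAAT boxes. The Top2a stretch held 2 homology regions and 5 CCAAT boxes, and the Kif11 stretch 1 homology region and 1 CCAAT box. The Cdkn1b stretch held 2 CCAAT boxes and none of the other motifs. The genes printed were picked by hand and do not stand for their groups. Before the start, 5 of 15 replication genes had an E2F site and 7 of 18 mitosis genes the homology region. A match describes letters only.

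**Figure D3:**
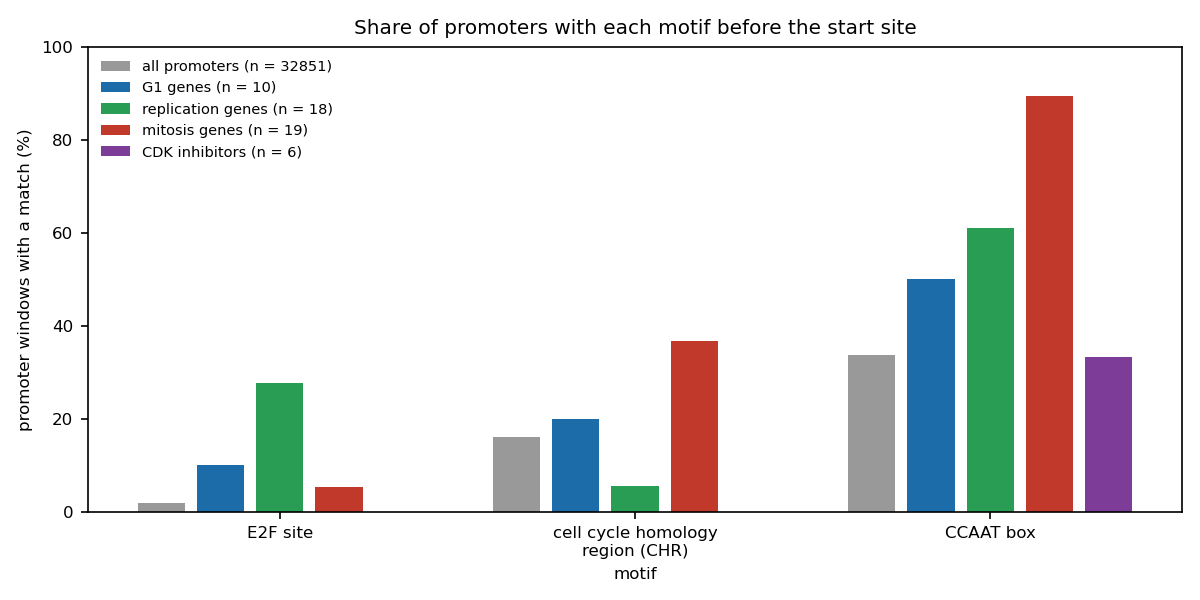
Share of promoter windows (%, y axis) with at least 1 match to each motif in the 250 bases before the start site, for all promoters and the 4 groups of cell cycle genes, with the number of windows in the key. E2F sites are most frequent among replication genes (27.8%) and the cell cycle homology region among mitosis genes (36.8%).

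The difference between osteoclasts and macrophages was set side by side in both genotypes. It was more positive in LysM-St18flox than in wild-type cells for 49 of 59 genes, with a median of 0.20 against 0.04 for all genes, of which 54.2% were above 0. By role the count was 24 of 24 mitosis genes, 16 of 18 replication genes, 7 of 13 G1 genes and 2 of 4 CDK inhibitors; under quantile normalization 20 of 24 mitosis genes and 15 of 18 replication genes were above 0. Foxm1 (1.07, by the brighter probe) was the only gene past 2-fold, and 3.2% of all genes were higher and 4.7% lower by this rule; at 1.5-fold 4 were higher and none lower (9.6% and 12% of all genes). Next came Myc (0.91), Cdt1 (0.70) and Cdk6 (0.63), and at the other end Cdkn1b (-0.35) and Rb1 (-0.32). Dimmer probes of Cdkn1a (-0.77), Rb1 (-0.48) and Ccnd2 (-0.41) lay lower still. At the brightest probes the differences of responses restate the smaller genotype difference in osteoclasts: 51 of 59 genes had one, against 51.4% of all genes. The lowest of a gene's 4 levels was the LysM-St18flox macrophage one for 37 genes (32.6% of all genes), the LysM-St18flox osteoclast one for 18 (29.5%), the wild-type osteoclast one for 3 (21.2%) and the wild-type macrophage one for 1 (16.8%). The highest was the wild-type macrophage level for 36 genes (20% of all genes), the wild-type osteoclast level for 20 (22.6%), the LysM-St18flox macrophage level for 3 (29.1%) and the LysM-St18flox osteoclast level for none (28.3%).

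**Figure D4:**
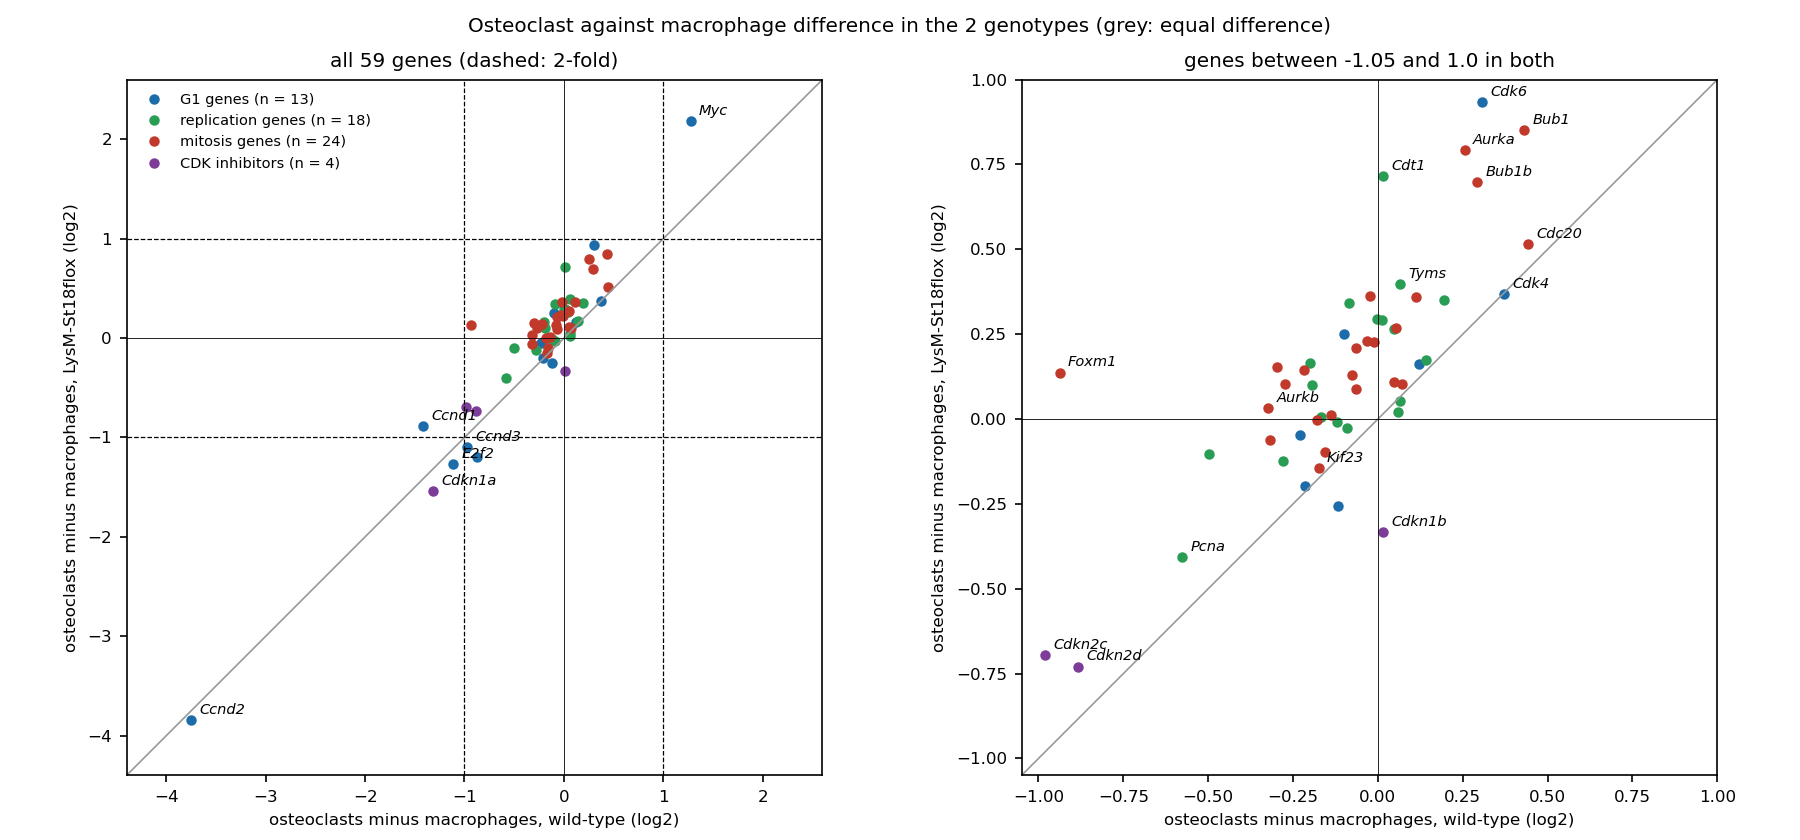
Difference between osteoclasts and macrophages (log2) in wild-type cells (x axis) and in LysM-St18flox cells (y axis) for the 59 genes, coloured by role, with all genes on the left and an enlarged view on the right; the grey line marks equal differences. Ccnd2 lies near -3.8 on both axes, and all 24 mitosis genes lie above the grey line (20 of 24 under quantile normalization).

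Further genes of the pathway, on lists drawn up by function, lay lower in LysM-St18flox cells too where they belong to replication or mitosis. In LysM-St18flox macrophages 33 of 38 other replication genes were lower, with a median of -0.61, and 43 of 44 other mitosis genes, with a median of -0.65. In osteoclasts the counts were 32 of 38 and 40 of 44, with medians of -0.34 and -0.50. Few passed 2-fold. Orc1, an origin recognition subunit, was at -0.67, -0.48, -1.80 and -1.35 and fell by 1.13 (log2) in LysM-St18flox macrophages, and a dimmer probe gave -0.58. Spc25, a kinetochore gene, was at 5.27, 4.89, 4.18 and 4.00 and fell by 1.09 (a dimmer probe gave -0.90), and Dlgap5, a spindle gene, fell by 1.03. Against the direction, Orc5 was 0.92 and 0.96 higher in LysM-St18flox macrophages and osteoclasts, though a dimmer probe gave -0.43 and -0.28. Mad1l1, which anchors Mad2 at kinetochores, was at 1.73, 2.84, 1.57 and 3.89 and rose in osteoclasts by 1.11 in wild-type and 2.32 in LysM-St18flox cells, with nearly the same values at a second probe.

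The other G1 regulators were mixed. In LysM-St18flox macrophages 15 of 21 were lower, with a median of -0.28, and in osteoclasts 13 of 21, with a median of -0.17. Rbl2, encoding the retinoblastoma relative p130 of resting cells, was at -0.89, -1.18, 0.56 and -0.38 and rose by 1.45 in LysM-St18flox macrophages. E2f7, a repressor of E2F targets, was at 1.93, 1.31, 0.86 and 0.18 and fell by 1.07 and 1.14 in LysM-St18flox macrophages and osteoclasts, whereas a much dimmer probe gave 0.16 and 0.93. Cdkn2b, encoding the CDK inhibitor p15, was at 0.01, 0.74, 0.00 and 2.004. It was highest in LysM-St18flox osteoclasts, 1.27 above wild-type ones, and the second probe gave 0.76. Mybl2, a partner of the mitotic gene complex, was at 3.30, 4.25, 2.40 and 4.01 and rose by 1.61 from macrophages to osteoclasts in LysM-St18flox cells, with a difference of 0.95 in wild-type cells. A list of 14 genes held kinases and cyclins that act in transcription or activate other CDKs, and also Cdk5. Of these, 7 were below 0 in LysM-St18flox macrophages, with a median of 0.02. In LysM-St18flox osteoclasts 5 were below 0, with a median of 0.13.

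**Figure D5:**
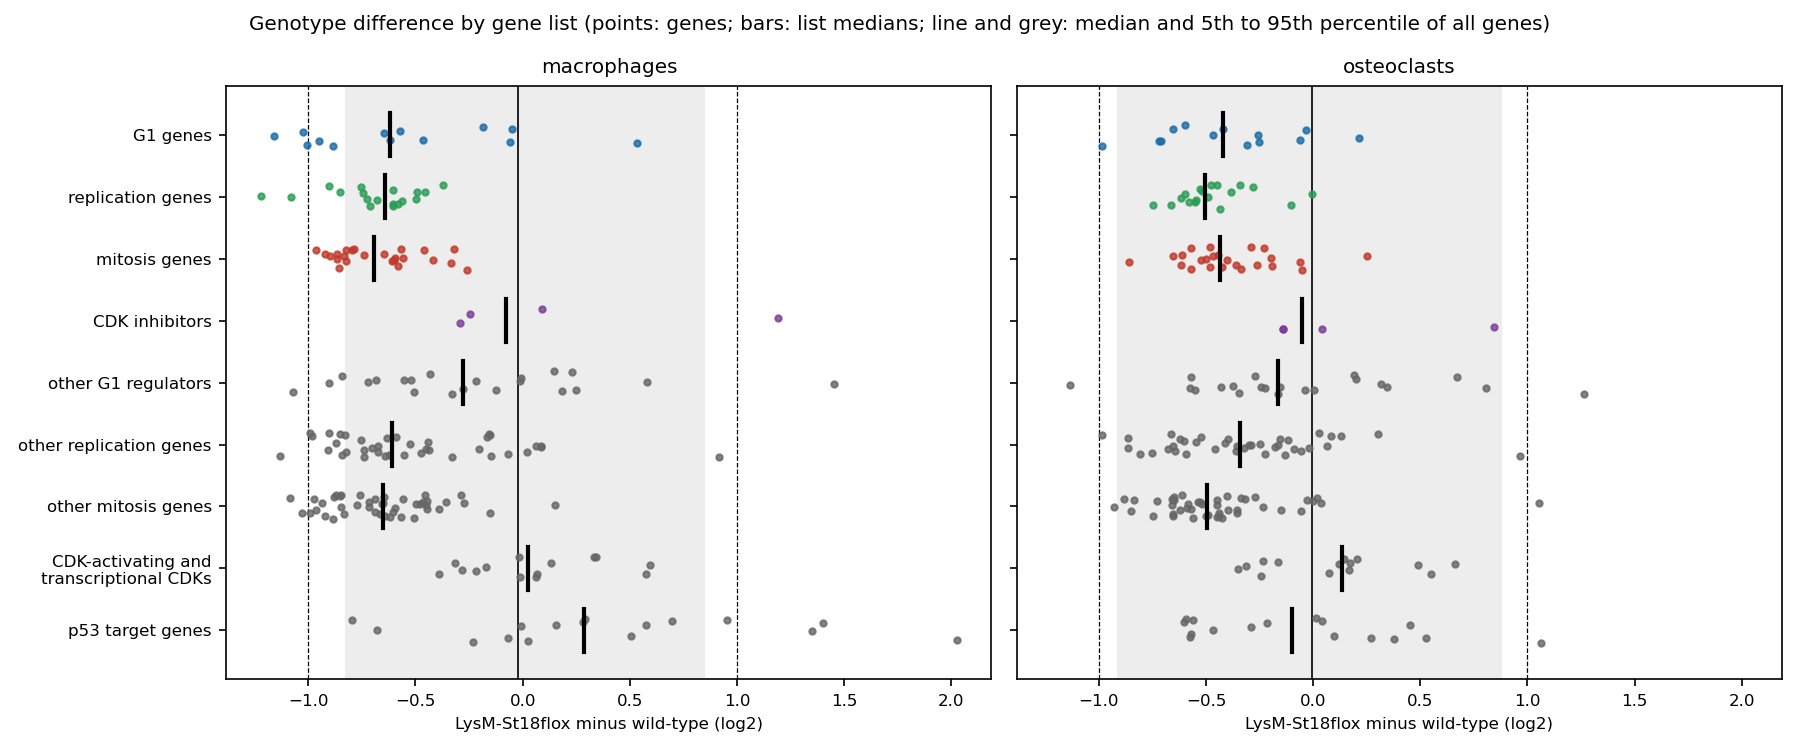
Difference between LysM-St18flox and wild-type (log2) in macrophages and in osteoclasts for every gene of each list (points), with the list median (bar), and the median and 5th to 95th percentile of all genes (line and grey band). The medians of replication and mitosis genes, members and further genes alike, run from -0.69 to -0.34. Those of the transcriptional and activating CDKs are 0.02 in macrophages and 0.13 in osteoclasts.

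Cell types other than macrophages and osteoclasts could be present in marrow cultures, and their markers were read on the same arrays. The 6 markers of marrow progenitors, cells that divide, had a summed level, in units of the array's 75th percentile, of 10.4 and 2.86 in wild-type macrophages and osteoclasts, and of 5.70 and 2.71 in those of LysM-St18flox mice. Most of that sum was Cd34, at levels of 3.23, 0.92, 2.25 and 0.83 (log2), so it was 0.98 lower in LysM-St18flox macrophages and 0.09 lower in LysM-St18flox osteoclasts than in wild-type cells. Over the list, 3 of 4 measured markers were lower in LysM-St18flox macrophages, with a median of -0.18 (Myb -0.33, Meis1 -0.02, Flt3 at least 0.10). In osteoclasts 3 of 6 were lower, with a median of 0.05 (Gata2 1.11, Flt3 at least 0.55, Kit at least 0.19, Meis1 -0.13, Myb -1.08). Flt3 and Kit were not well above background in wild-type cells, so their differences are lower bounds. The median takes them at those values. Kit, the receptor that defines marrow progenitors, was above background on the LysM-St18flox osteoclast array only. The 8 neutrophil markers summed to 30.9, 12.4, 38.6 and 8.75. In macrophages of both genotypes most of that sum was Mmp8, at levels of 4.33, 2.25, 4.66 and 1.20 (log2) on the 4 arrays. The B cell, T and NK cell, erythroid and stroma lists summed to at most 3.67 on any array. The part of these cells in the genotype difference of the cell cycle genes was not tested.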

How the data were processed

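Total RNA of 4 mouse marrow cultures, 100 ng each, was labelled with Cy3 and hybridised to 1-colour Agilent arrays, all on 1 slide. Per the file headers, the deposited spot intensity was extracted by Agilent Feature Extraction (version 11.0.1.1, per the submitters' processing notes), background-subtracted and detrended, and the design names the mouse build mm9. The deposited log2 table, made by the authors in a way not given in the sources used here, had nearly equal sorted columns on every array; it covers 30909 probes and served as an alternative. Deposited quality flags marked spots above background and 80 to 126 outlier spots an array, which were left out.

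From these, log2 intensity was averaged over a probe's spots and reduced by the array's 75th percentile over 56605 probes. Of 35886 probes with a RefSeq accession, 32994 were named through the RefSeq gene table. A gene was read at its probe with the highest mean level and entered a comparison if either array had it well above background; where only 1 did, its difference is a bound. Of the 59 genes 28 had further probes, and these are quoted for some of the genes whose differences they change. Limma 3.58.1 in R 4.3.3 (normexp) and Python 3.11.15 were used, and the calling script was tested on simulated data. The mean spot signal was not used here, so normexp ran on the median spot signal, with an offset of 50. The alternatives were median centring, normexp, quantile normalization, the authors' table, no filter on dim probes, the median over probes, a 1.5-fold limit and another promoter window.

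The 59 genes and all lists were chosen with earlier results of these data known. Arrays were given in full for the members with the largest differences in each role group and comparison, and for the extremes of the difference of responses; of each further list, up to 3 genes were eligible. The p53 target list is described with the other observations. Nothing is known of the spread between cultures, which the number of arrays does not allow to be measured.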

Additional observations from a re-analysis of the deposited data

How the results depend on the processing

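With 1 array a group no replicate could be left out. No paired analysis was possible because each group has 1 array and the result comes from no test. Of the counts and list medians under the alternatives, 179 stayed within their limits and 11 moved, and no value for a single gene changed sign once it had passed 2-fold. With normexp, 2 genes were lower by 2-fold in macrophages of LysM-St18flox mice (5 in the main setting), as Ccne1 (-0.78), Ccne2 (-0.77) and Tyms (-0.99) missed the limit, and 0 passed it for the difference of responses (Foxm1 0.87). With the median over probes, 0 passed it for the difference of responses (Foxm1 0.53), 1 gene, Mcm7, was lower in LysM-St18flox osteoclasts (-1.16), and in macrophages 6 genes were lower in place of 5: Myc (-0.96) and Tyms (-0.97) missed the limit, and Mcm6 (-1.16), Mcm7 (-1.40) and Foxm1 (-1.07) passed it. With the authors' table Ccne2 was at -0.97. Between wild-type cell types normexp gave 6 lower genes (4 in the main setting), as Ccnd3 (-1.06) and Cdkn2c (-1.13) passed the limit. The 1.5-fold limit gave 9 lower genes between cell types in wild-type cells, 6 higher and 8 lower in LysM-St18flox cells, 35 lower between genotypes in macrophages, 1 higher and 13 lower in osteoclasts, and 4 higher for the difference of responses. Over all settings 55 to 56 of 59 genes were lower in LysM-St18flox macrophages and 52 to 56 in LysM-St18flox osteoclasts. The median difference of the CDK inhibitors between genotypes was near 0 and turned sign with normexp, to 0.01 in macrophages and 0.09 in osteoclasts.

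Counts of all genes past 2-fold moved more. Between genotypes they were 952 in macrophages and 1132 in osteoclasts, with 557 and 537 under normexp, 2093 and 2330 without the filter on dim probes, and 695 in osteoclasts in the authors' table. For the difference of responses 1080 became 700 and 3345, and for wild-type cell types 1918 became 2985 without the filter. The share of these calls that were higher was 49.1% for genotype in osteoclasts but 62.2% under quantile normalization and in the authors' table, and 40.6% for the difference of responses but 53.1% under normexp. Without the filter the median of all genes moved by -0.14 in macrophages and -0.18 in osteoclasts between genotypes.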

Other observations

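A list of 17 genes with roles in cell cycle arrest and cell death held p53 targets and Trp53, which encodes p53 itself. Of these, 16 were measured between genotypes in macrophages. There 11 were higher in LysM-St18flox cells, Trp53 among them (0.51), with a median difference of 0.29, while 51.8% of all genes were lower. In osteoclasts 8 of 16 were higher, with a median of -0.10. Btg2, an antiproliferative gene, was at -0.90 and -1.89 in wild-type macrophages and osteoclasts, and at 1.12 and -2.10 in those of LysM-St18flox mice. It was 2.03 higher in LysM-St18flox macrophages (2.31 at a second probe) and 0.21 lower in LysM-St18flox osteoclasts (0.27 higher at the second probe). Bbc3 and Trp53inp1, which promote cell death, rose by 1.40 and 1.35 in LysM-St18flox macrophages, and a dimmer Trp53inp1 probe gave 0.62. The list did not move as one: Mdm2, the p53 inhibitor, was 0.68 lower in LysM-St18flox macrophages and 0.56 lower in osteoclasts, Ccng1 differed by -0.01, and Cdkn1a by 0.09. Between cell types 7 of 17 fell by 2-fold or more in LysM-St18flox osteoclasts (12.2% of all genes did), among them Btg2 (-3.22) and Sesn1 (-2.97), and 2 of 16 in wild-type osteoclasts (7.32% of all genes), Sesn1 and Zmat3 (-2.06 and -1.01). Perp, which was not well above background in macrophages, went the other way: relative to them, osteoclasts had at least 33.3-fold more of it in LysM-St18flox cells and at least 13.5-fold more in wild-type cells.

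Outside the 59 genes, 415 measured genes had an E2F site in the 250 bases before their start. In LysM-St18flox macrophages 62.7% of them were below 0, with a median difference of -0.13. For 9999 others with neither an E2F site nor a cell cycle homology region in those bases the values were 50.8% and -0.01. In osteoclasts the shares were 52.8% and 49.3%. For 1655 genes with the homology region the share in macrophages was 54.3%, with a median of -0.05. Within the 59 genes the macrophage median was much the same with and without these motifs before the start. It was -0.61 for 7 genes with an E2F site (7 below 0) and -0.60 for 10 with the homology region (10 below 0). For 29 with a promoter and neither motif it was -0.60 (27 below 0). The part of these motifs in the genotype difference was not tested.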
